A study of Mus musculus with 19 samples.

Results

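The 10 genes followed here are markers of microglia, measured in FACS-purified cortical projection neurons of the mouse: C1qa, C1qb, Csf1r, Ctss, Cd68, Aif1, Fcgr3, Ly86, Tyrobp and Ccl3. They were chosen with earlier results of these data known, so the tests below are not those of a list picked blind. They were matched by symbol among 18193 genes measured by a probe set with a single symbol. Each was read from its probe set with the highest mean over the 19 arrays, out of 14 probe sets that carry the 10 symbols. The study profiled retrogradely labelled neurons of C57BL/6 mice with no genetic or drug treatment in any group. Neurons had taken up green fluorescent microspheres placed where their axons end, and were sorted by that fluorescence straight into RNAlater. The labels name no neuronal surface protein as a second gate. Corticotectal projection neurons (CTPN), which the labels tie to visual cortex, were profiled at postnatal day 14 (P14), with 2 arrays. Corticospinal motor neurons (CSMN) were profiled at embryonic day 18 (E18), P3, P6 and P14, with 2 arrays at each stage except P3, which had 3. Callosal projection neurons (CPN) were profiled at the same 4 stages with 2 arrays each. The labels tie CSMN and CPN to sensorimotor cortex. The RNA of every sample went through 2 rounds of linear in vitro transcription before hybridisation.

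Microglia are the resident macrophages of the brain. They enter the neural tube early in embryonic life, depend on signalling through the receptor encoded by Csf1r, and survey and engulf cells, debris and synaptic material in the growing cortex. The C1q complex that they secrete tags material for uptake, and neurons in turn display ligands such as Cx3cl1 and Cd200 that microglial receptors read. In healthy brain the 10 genes are known mainly from microglia and other macrophages.

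The promoters of members that move together are shown first, because the myeloid factor PU.1, encoded by Spi1, is known to bind purine-rich sites near the starts of many macrophage genes. RefSeq promoter windows (build GRCm38.p6, 250 bases before to 50 bases after a start site) were matched for 7 of the 10 members. A 7-letter form of such a site, GAGGAAG, was searched on both strands, where it reads CTTCCTC on the other strand. It was found in the windows of 2 of these 7 members, Ctss and Fcgr3, and in 9 of 23 other microglia genes with a window (39.1%), against 15.4% of 27025 genes with a window in the table. A match is a run of letters and no evidence of binding. The capitals mark it in the Ctss window on chr3:95526536-95526835 (plus strand) and in the Fcgr3 window on chr1:171059354-171059653 (minus strand).
Ctss: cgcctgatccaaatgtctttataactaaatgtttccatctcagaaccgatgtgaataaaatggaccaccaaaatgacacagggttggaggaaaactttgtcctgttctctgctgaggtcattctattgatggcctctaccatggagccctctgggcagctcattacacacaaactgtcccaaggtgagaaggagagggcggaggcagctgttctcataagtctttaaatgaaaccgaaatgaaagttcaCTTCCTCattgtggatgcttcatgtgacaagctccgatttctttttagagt
Fcgr3: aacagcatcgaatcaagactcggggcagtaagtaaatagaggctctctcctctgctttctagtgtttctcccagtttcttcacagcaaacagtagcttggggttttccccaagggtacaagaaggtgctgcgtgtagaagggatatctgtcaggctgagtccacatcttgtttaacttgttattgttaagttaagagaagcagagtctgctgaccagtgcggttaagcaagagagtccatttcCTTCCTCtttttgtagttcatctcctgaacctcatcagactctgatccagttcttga
In Ctss the match began 1 base before the start site and ran across it, and in Fcgr3 it took up the last 7 bases before the start site.

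The neuron labels were checked against neuronal genes. General neuron genes averaged 10.33 to 11.60 on the log2 scale over the arrays, with 12 of 12 measured, and the array medians lay between 6.42 and 6.62. Both CPN E18 arrays were lowest for these genes, at 10.35 and 10.33, against 10.77 to 11.03 in CSMN E18. In CSMN against CPN over the mean of 4 stages, Bcl11b, a transcription factor of subcerebral projection neurons, was higher by 2.95 ± 0.20 log2 (SE, limma, Benjamini-Hochberg adjusted p = 5.83e-07), and Cux2, a factor of upper-layer neurons, was lower by 3.22 on that scale (log2 difference -3.22 ± 0.34, adjusted p = 2.89e-05). Arrays of one group correlated at r of 0.907 to 0.996 over all probe sets (11 pairs). The 2 CSMN P14 arrays differed by at least 1 log2 unit for more genes than any other pair within a group: of 18193 genes, 18.6% were higher in replicate 1 by that much, and 9.99% were lower. The labels do not say whether several animals were pooled for an array. Both CPN E18 arrays carried progenitor genes at levels seen on no other array, with a list mean of 10.94 to 10.98 log2, against 6.44 to 6.61 in the CSMN E18 arrays.

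The complement genes and the lysosomal protease gene showed the pattern that most members shared. C1qa encodes a chain of the C1q recognition complex (chr4:136895916-136898844). C1qa read 7.38 and 6.52 log2 in CTPN at P14. In CSMN it read 6.52 and 6.18 at E18, 7.13, 6.83 and 6.98 at P3, 7.90 and 9.56 at P6, with 9.73 and 7.10 at P14. In CPN it read 9.54 and 8.42 at E18, 7.88 and 8.09 at P3, 7.48 and 8.002 at P6, with 7.68 and 6.85 at P14. Its 3 highest arrays were one of the 2 arrays in each of CSMN P14, CSMN P6 and CPN E18, while it was lowest in CSMN E18 replicate 2, followed by CTPN P14 replicate 2 and CSMN E18 replicate 1. In these bulk samples fewer cells of a type and less RNA per cell cannot be told apart.

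C1qb, the second chain of the same complex and a neighbour of C1qa (chr4:136880126-136886200), ran from 7.59 log2 in CSMN P14 replicate 2 to 10.76 in CSMN P6 replicate 2. CPN E18 replicate 1 read 10.72 and CSMN P14 replicate 1 read 9.87. Its other 2 probe sets followed the chosen one over the 19 arrays at r of 0.93 and 0.96. The chosen C1qb probe set has an _x_at name, which marks probes that may also pick up other transcripts.

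Ctss encodes cathepsin S, a lysosomal protease of antigen-presenting cells (chr3:95526786-95556405). It read 7.20 and 7.72 log2 in CTPN. In CSMN it read 7.05 and 7.26 at E18, 8.05, 7.82 and 7.64 at P3, 8.88 and 10.53 at P6, with 10.41 and 8.09 at P14. In CPN it read 10.99 and 8.92 at E18, 8.75 and 8.85 at P3, 8.92 and 8.86 at P6, with 8.67 and 7.54 at P14. The same 3 arrays led as for C1qa, and CPN E18 replicate 1 stood above its partner by 2.07 log2. Cd68 encodes a lysosomal membrane glycoprotein of phagocytes (chr11:69664213-69666170). It read 7.37 and 6.89 log2 in CTPN. In CSMN it read 5.78 and 5.65 at E18, 6.06, 5.70 and 5.76 at P3, 6.82 and 7.25 at P6, with 7.75 and 7.19 at P14. In CPN it read 6.996 and 5.99 at E18, 5.89 and 6.31 at P3, 5.89 and 6.17 at P6, with 6.61 and 6.23 at P14. By group mean Cd68 was highest in CSMN P14, then in CTPN and CSMN P6, and the 2 CSMN P14 arrays did not overlap with those of CPN at P14.

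The receptor and adaptor genes came next. Csf1r encodes the receptor for the survival factors CSF1 and interleukin 34. It ran from 8.42 log2 in CSMN E18 replicate 1 to 11.48 in CPN E18 replicate 1, with 11.33 in CSMN P14 replicate 1 and 10.76 in CSMN P6 replicate 2. The 2 CSMN E18 arrays read 8.42 and 9.33, below both CPN E18 arrays, at 11.48 and 10.23. Csf1r was above its own array's median on all 19 arrays, as were C1qb, Ctss and Ly86, by their chosen probe sets. The other C1qb probe sets ran from 4.41 to 9.49 and from 5.86 to 9.12 log2. Both thus fell below the lowest array median, 6.42, on some arrays. The other 2 Csf1r probe sets followed the chosen one at r of 0.83 and 0.47, so the Csf1r values depend on the probe set.

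Fcgr3 encodes a low-affinity activating receptor for immunoglobulin G (chr1:171051169-171065915). It read 6.45 and 6.61 log2 in CTPN. In CSMN it read 6.40 and 6.09 at E18, 6.97, 6.72 and 7.14 at P3, 8.09 and 8.57 at P6, with 8.19 and 7.30 at P14. In CPN it read 7.93 and 7.21 at E18, 7.04 and 7.47 at P3, 7.003 and 7.02 at P6, with 6.46 and 6.39 at P14. Fcgr3 was high in both CSMN P6 arrays, where the replicates differed by less than for C1qa or Ctss.

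Ly86, which encodes the partner of the CD180 receptor on myeloid cells and B cells (chr13:37345345-37419036), ran from 7.03 log2 in CTPN replicate 2 to 9.94 in CPN E18 replicate 1. CSMN P6 replicate 2 read 9.25, CPN E18 replicate 2 read 8.90 and CSMN P14 replicate 1 read 8.71. Both CPN E18 arrays were above both CSMN E18 arrays, which read 7.24 and 7.79. Tyrobp, the signalling adaptor of TREM2 and related receptors (chr7:30413782-30417582), ran from 6.06 log2 in CTPN replicate 2 to 8.39 in CSMN P14 replicate 1. CPN E18 replicate 1 read 8.31 and CSMN P6 replicate 2 read 7.88. In CPN, Tyrobp read 6.56 and 6.31 at P14, below both E18 arrays, the second of which read 7.43.

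Aif1 encodes the calcium-binding protein IBA1, widely used to stain microglia (chr17:35170986-35176083). It was the dimmest member, never above its own array's median, and lay between 5.07 and 6.19 log2. It read 5.17 and 5.39 in CTPN, and in CSMN 5.32 and 5.24 at E18, 5.43, 5.07 and 5.17 at P3, 5.41 and 5.59 at P6, with 6.19 and 5.86 at P14. In CPN it read 5.97 and 5.98 at E18, 5.30 and 5.33 at P3, 5.23 and 5.48 at P6, with 5.12 and 5.11 at P14. Its replicates were close, and every array of CSMN P14 and CPN E18 was above every array of the other 7 groups. The probe set's _s_at name marks probes shared between transcripts.

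Ccl3 encodes a chemokine released by activated macrophages (chr11:83647843-83649378). It was above its array's median on 3 of 19 arrays. CPN E18 replicate 1 read 8.40 log2, and the other 18 arrays lay between 5.48 and 6.85. CSMN P14 replicate 1, at 6.85, and CSMN P6 replicate 2, at 6.64, were next, so its 3 highest arrays were those of C1qa. In CPN at P14 Ccl3 read 5.48 and 5.76.

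**Figure D1:**
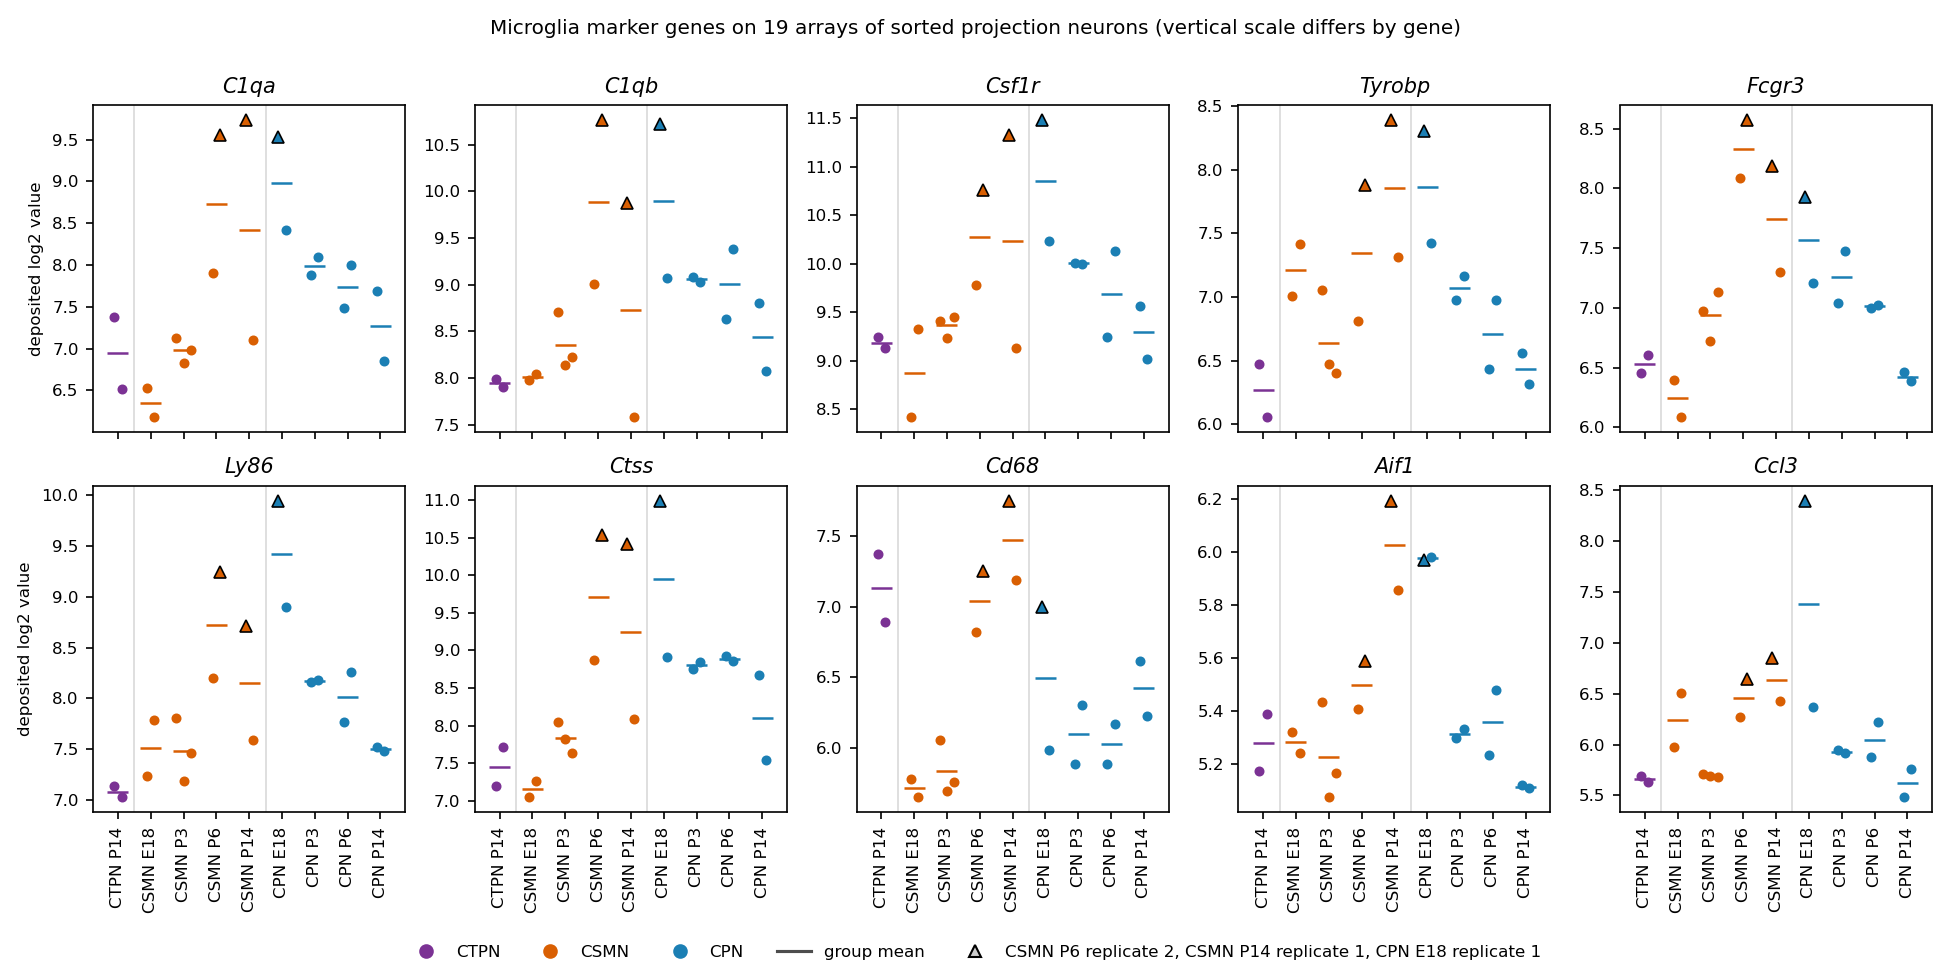
Log2 value of each of the 10 microglia marker genes on each of the 19 arrays, by neuron type and stage, one panel per gene; triangles are CSMN P6 replicate 2, CSMN P14 replicate 1 and CPN E18 replicate 1. These 3 arrays sit above the others for C1qa, C1qb, Csf1r, Ctss, Tyrobp and Ccl3, and Cd68 and Aif1 follow another order.

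The highest member values came from 3 arrays of 3 different groups. Centred on each gene's mean, the 10 members averaged 1.54 log2 in CPN E18 replicate 1, 1.25 in CSMN P14 replicate 1 and 1.19 in CSMN P6 replicate 2, and between -0.72 and 0.36 on the other 16 arrays. These 3 arrays were the 3 highest for 6 of 10 members (C1qa, C1qb, Csf1r, Ctss, Tyrobp and Ccl3), for 9 of 29 other microglia genes and for 32 of all 18193 genes. They were singled out after their values were seen, and are described one by one. The labels give no scan, sort or preparation batch that would link them.

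Each of these 3 arrays was set against its replicate. The array picked for high member values came first in each pair, so member counts and medians lean upward by construction. In CSMN at P6, replicate 2 was above replicate 1 for 10 of 10 members, with a median difference of 1.01 log2 and a range of 0.18 to 1.75. Over all 18193 genes, 49.96% were higher, with a median difference of 0.00 log2, and 0.066% were higher by at least 1, as were 5 of the 10 members. The 2 CSMN P6 arrays were otherwise close, with a median difference of 0.02 for general neuron genes, 0.12 for astrocyte genes, 0.06 for border macrophage genes and -0.10 for endothelial genes. Chemokine and cytokine response genes, however, were higher in replicate 2 for 12 of 12, with a median of 0.19.

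In CPN at E18, replicate 1 was above replicate 2 for 9 of 10 members and for 56.5% of all genes, with a member median difference of 1.08 log2. The exception was Aif1, which differed by -0.01. Of the 10 members, 7 were higher by at least 1 log2 unit, as were 3.91% of all genes. In CSMN at P14, replicate 1 was above replicate 2 for 10 of 10 members, by 0.34 to 2.63 log2, and for 55.2% of all genes. There, however, 18.6% of all genes were higher by at least 1, so many other genes differed between these 2 arrays too. The endothelial, pericyte and blood cell lists ran the other way in this pair, with medians of -0.23, -0.92 and -0.96 log2 for replicate 1 minus replicate 2. In every one of these 3 pairs the difference compares 2 arrays and has no test. Some other pairs were as one-sided, by smaller amounts. In CSMN P3, replicate 1 was above replicate 2 for 10 of 10 members (median 0.33 log2) and 67.4% of all genes. In CPN P14, replicate 1 was higher for 9 of 10 (median 0.31) and 57.3% of all genes. In CPN P6, replicate 1 was lower for 9 of 10 (median -0.42), while 59.1% of all genes were higher. The part of cells of other types in these differences was not tested.

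**Figure D2:**
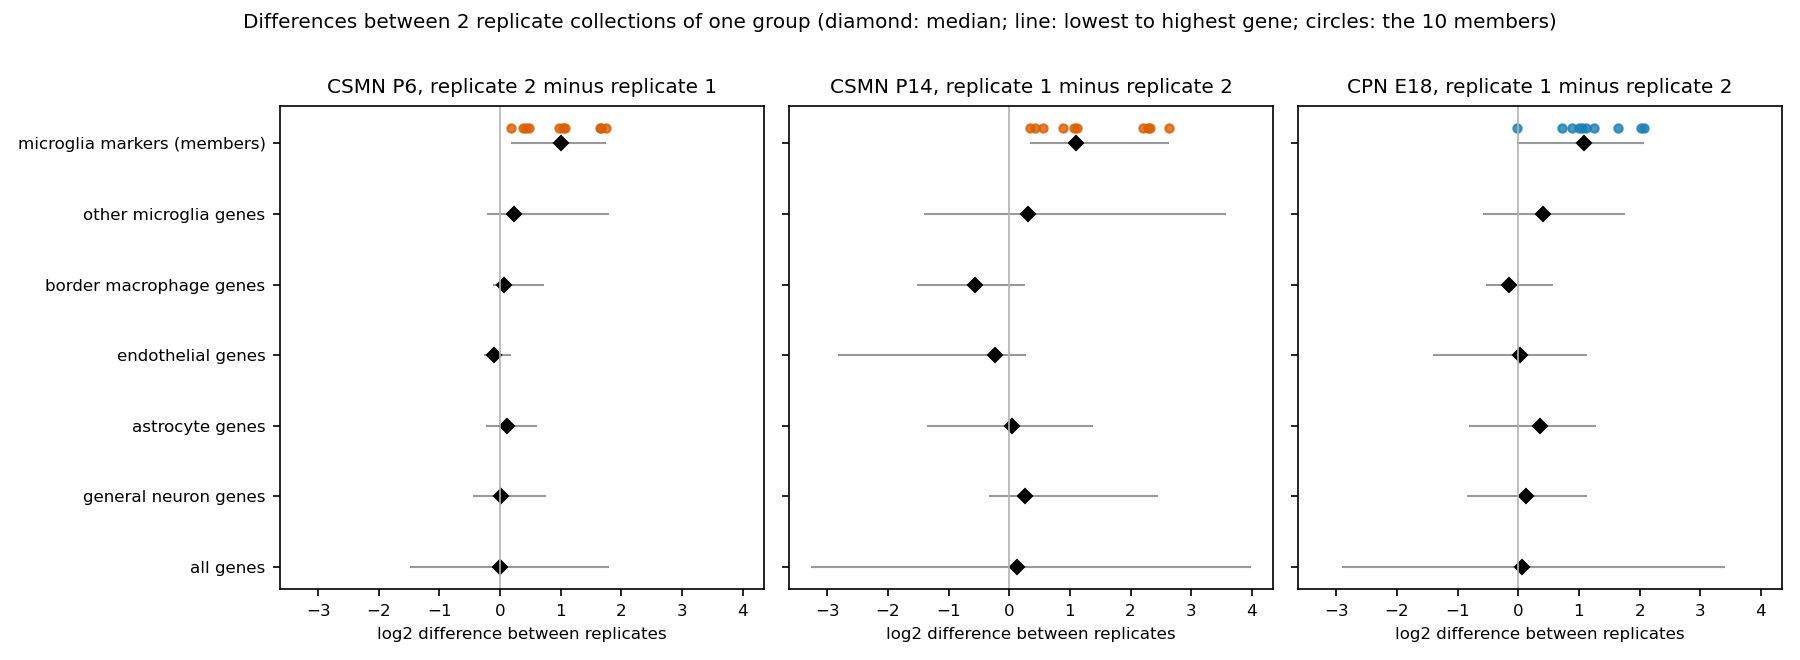
Difference in log2 value between the 2 arrays of CSMN P6 (replicate 2 minus 1), CSMN P14 (replicate 1 minus 2) and CPN E18 (replicate 1 minus 2), by gene list; diamonds are medians, lines run from the lowest to the highest gene, and circles are the 10 members. Member medians are 1.01, 1.09 and 1.08 log2, and the medians of the other lists are nearer 0 in CSMN P6 and CPN E18.

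Other microglia genes were higher on the same arrays in CSMN P6 and CPN E18. In CSMN P6, 24 of 29 were higher in replicate 2, with a median of 0.22 log2, where 49.96% of all genes were. In CPN E18, 21 of 29 were higher in replicate 1 (median 0.41), where 56.5% of all genes were. In CSMN P14, 17 of 29 (58.6%) were higher in replicate 1 (median 0.31), a share near the 55.2% of all genes. C1qc, the third chain of C1q, read 7.66 and 9.46 log2 in CSMN P6, 9.75 and 6.17 in CSMN P14, and 9.58 and 7.82 in CPN E18. Cx3cr1, the receptor for the neuronal ligand Cx3cl1, read 7.20 and 8.18 log2 in CSMN P6, 8.57 and 6.88 in CSMN P14, and 8.92 and 7.22 in CPN E18. C1qc and Cx3cr1 were thus highest on the 3 arrays that were highest for C1qa. P2ry12, a purinergic receptor typical of resting microglia, read 7.31 log2 in CSMN P14 replicate 1 and 4.98 to 6.09 on the other 18 arrays. Itgam, which encodes the CD11b integrin chain, lay between 5.33 and 5.85 and was never above its array's median, and Ptprc, which encodes CD45, was not either.

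Of the 10 genes most like the members, 5 were on the list of other microglia genes (Fcrls, C1qc, Cx3cr1, Ptprc and Mpeg1). Outside the members, the genes with the highest Pearson correlation with the mean of the members over 19 arrays were Gusb, a lysosomal glucuronidase gene, and Fcrls (r = 0.95 each), C1qc (0.94), Cx3cr1 (0.93), Pycard, an inflammasome adaptor gene (0.92), and Cyba, an oxidase subunit gene (0.89). P2ry6 (0.88) and Ptprc, Mpeg1 and Ccl12 (0.85 each) followed. Without the 2 arrays farthest from the median of the members' mean, CPN E18 replicate 1 and CSMN P14 replicate 1, r lay between 0.72 for Mpeg1 and 0.95 for Gusb. Without the 3 high arrays, CSMN P6 replicate 2 included, r was 0.54 for P2ry6, 0.60 for Mpeg1, 0.61 for Ptprc and 0.66 for Cx3cr1, and 0.75 to 0.90 for the other 6 genes. Over all 18193 genes the median r was -0.05, and 58 genes, members included, exceeded 0.7. After each group's mean was subtracted, C1qc (r = 0.97), Fcrls, P2ry13 and P2ry6 (0.94 each) and Cd14 (0.93) headed the order. These correlations describe the same 19 arrays, which share the sort, the amplification and the hybridisation.

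Not every microglia gene followed. Of 29 other microglia genes, 8 had an r over 0.7, the median was 0.42, and the lowest was -0.44 for Itgam. Among the members themselves, 28 of 45 pairs correlated over 0.7, with a median of 0.73, and Cd68 was the loosest member, at 0.31 to 0.58 with the other 9. Median r with the members' mean was -0.14 for border macrophage genes, -0.16 for endothelial genes, -0.20 for blood cell genes and -0.02 for general neuron genes, against 0.48 for astrocyte genes and 0.50 for progenitor genes. None of the 10 border macrophage genes was highest on one of the 3 high arrays. Of them, 5 (Ms4a7, Cbr2, Stab1, Cd209f and Clec10a) were highest in CSMN P14 replicate 2. Another 4 (Mrc1, Lyve1, Pf4 and F13a1) were highest in CPN P3 replicate 2, and Cd163 in CSMN E18 replicate 2. Cd163, Lyve1, Stab1 and Clec10a were never above their array's median, while Ms4a7 and Cd209f were on all 19 arrays. CSMN P14 replicate 2 was also highest for 5 of 12 oligodendrocyte, 4 of 8 pericyte, 3 of 6 blood cell and 9 of 29 other microglia genes.

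**Figure D3:**
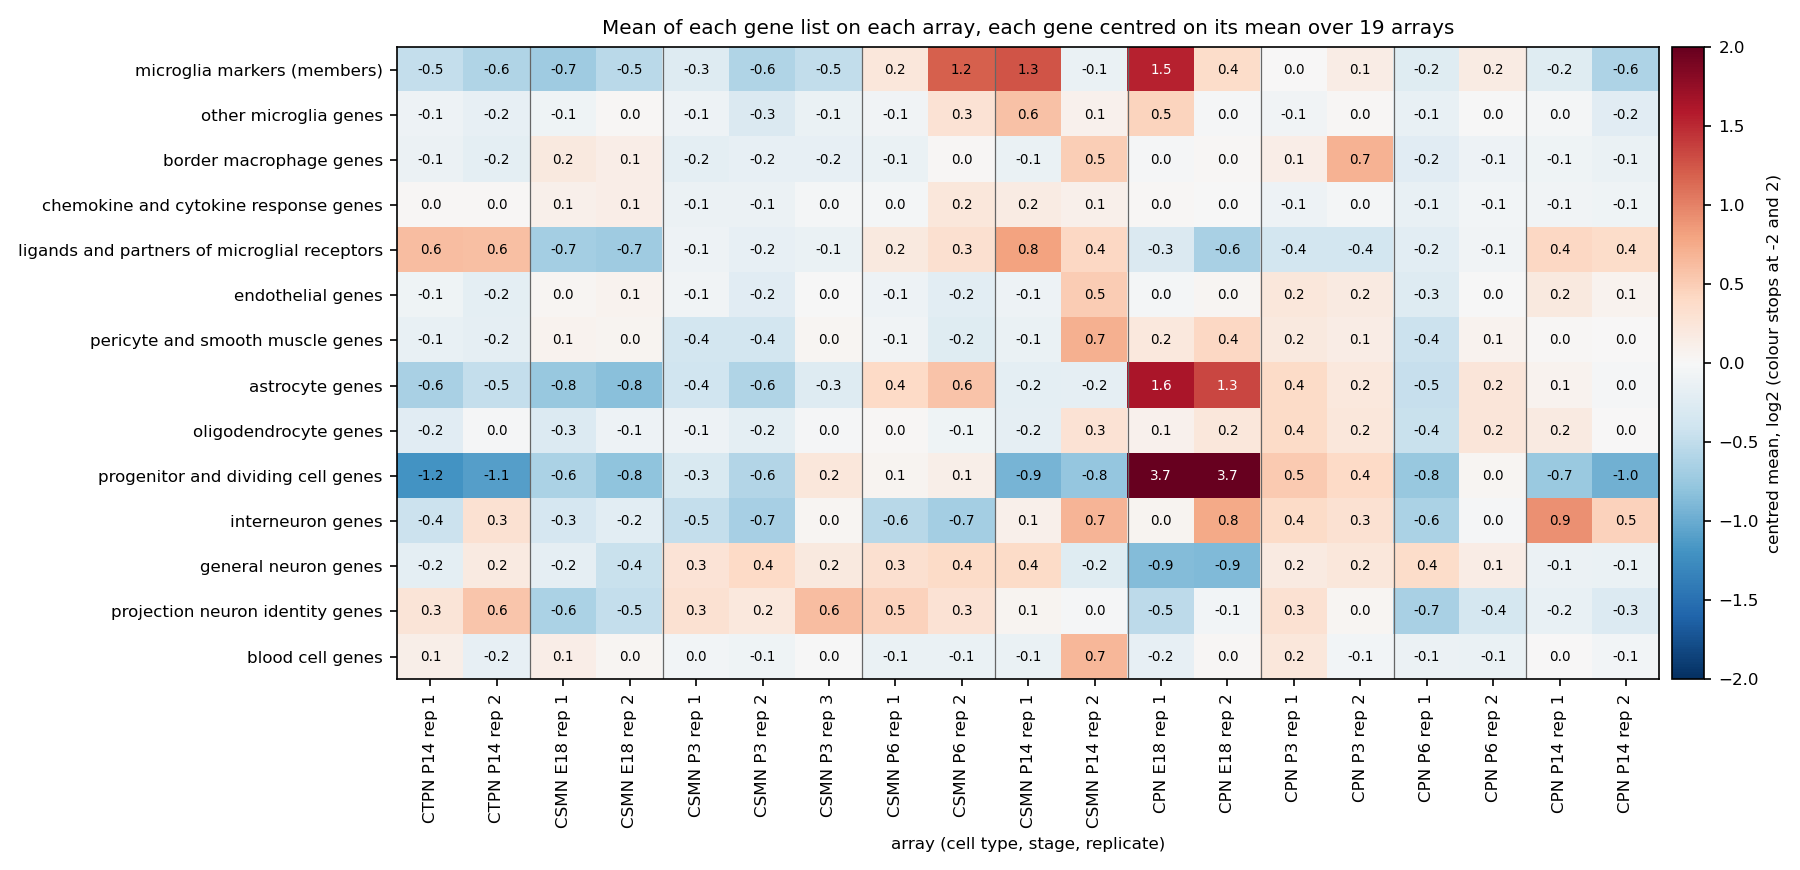
Mean log2 value of 14 gene lists on the 19 arrays, centred per gene and averaged over the list, with arrays grouped by neuron type and stage and the shade giving the centred mean. The member row is highest in CPN E18 replicate 1, CSMN P14 replicate 1 and CSMN P6 replicate 2, and the progenitor and astrocyte rows are highest in both CPN E18 arrays.

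The spread between replicates was wide for most members. Pooled within-group SD was 0.84 log2 for Ctss, 0.80 for C1qa, 0.79 for C1qb and 0.68 for Csf1r, at the 99.8th, 99.7th, 99.6th and 98.7th percentiles of all genes. It was 0.14 for Aif1, at percentile 7.43. The median over the members was 0.48, against 0.28 over all genes. Comparisons between groups of 2 or 3 arrays are therefore imprecise for Ctss, C1qa, C1qb and Csf1r. Aif1 was never above its own array's median, so its small SD is that of a dim probe set. Ordered by group mean, C1qa stood highest in CPN E18, then CSMN P6, CSMN P14, CPN P3, CPN P6, CPN P14, CSMN P3, CTPN P14 and CSMN E18, and no 2 neighbours in this order were free of overlap between their arrays.

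At E18, most of the markers were lower in CSMN than in CPN. C1qa averaged 6.35 ± 0.24 log2 in CSMN and 8.98 ± 0.79 in CPN, and Ly86 averaged 7.51 ± 0.39 in CSMN and 9.42 ± 0.74 in CPN (SD, n = 2 each). Of 10 members, 6 were lower past the test in one limma model over all groups, with adjusted p below 0.05 over 18193 genes, where 8.94% of all genes were lower and 12.9% were called in either direction. C1qa was lower by 2.63 ± 0.68 log2 (SE, adjusted p = 0.0208), Ctss by 2.80 ± 0.71 (adjusted p = 0.0191), Ly86 by 1.91 ± 0.41 (adjusted p = 0.00764), Csf1r by 1.98 ± 0.59 (adjusted p = 0.0385), Fcgr3 by 1.32 ± 0.30 (adjusted p = 0.0101) and Aif1 by 0.69 ± 0.19 (adjusted p = 0.0243), all with CSMN E18 below CPN E18. The Csf1r call holds for its chosen probe set. Its dimmest probe set overlapped, with 7.51 and 6.89 log2 in CSMN E18 and 7.64 and 6.93 in CPN E18. Over the 29 alternatives run, the Csf1r difference lay between -2.61 and -1.03 log2, and it missed the threshold in 15 of them. C1qb, Cd68, Tyrobp and Ccl3 had log2 differences of -1.88, -0.77, -0.65 and -1.14 that did not pass. The C1qb value is likewise that of its chosen probe set. The dimmest C1qb probe set read 4.90 and 4.41 log2 in CSMN E18 and 9.49 and 6.48 in CPN E18. The remaining C1qb probe set read 6.44 and 6.32 in CSMN E18 and 8.72 and 7.33 in CPN E18. The median of the members was -1.60 log2, against 0.10 over all genes. By the chosen probe sets, the arrays of the 2 groups did not overlap for 9 of 10 members, Ccl3 excepted. The share of all genes without such overlap was not counted, so this count cannot be set against a background. Without CPN E18 replicate 1, no member passed (median -1.01), while without CSMN E18 replicate 1 or 2 the counts were 2 and 1, and without CPN E18 replicate 2 the count was 8. Array weights gave 0 and a fit on the compared groups alone gave 3. A group left with 1 array is assumed to vary like the other groups.

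Other lists moved in the same contrast. Of 10 progenitor and dividing cell genes, 8 were lower in CSMN at E18 (median -4.79 log2), as were 8 of 12 astrocyte genes (median -2.22), among them Gja1, a gap junction gene, by 6.26 ± 0.73 log2 (SE, adjusted p = 4.18e-05). The summed log2 level of the 10 progenitor genes was 64.41 to 66.13 in CSMN E18 and 109.36 to 109.81 in CPN E18, and that of the 12 astrocyte genes was 78.71 to 79.66 in CSMN E18 and 104.79 to 108.35 in CPN E18. Of 29 other microglia genes, Grn alone passed, lower by 1.47 ± 0.24 log2 (SE, adjusted p = 0.000849), with a list median of 0.08. Grn encodes progranulin, which neurons also make. The part of these other cells in the member differences was not tested.

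At P3 and P6 no member passed limma's test. At P3, where 0.874% of all genes were called, all 10 log2 differences were negative in CSMN against CPN (median -0.53), with C1qa at -1.01 ± 0.62 (SE, limma adjusted p = 0.888) and Ctss at -0.96 ± 0.65 (adjusted p = 0.95). No member reached an unadjusted p of 0.05 there. Shares of all genes called are at the adjusted threshold, here and below, and none is given for counts at an unadjusted p. At P6, where 1.07% of all genes were called, all 10 were positive (median 0.76), and 2 reached an unadjusted p of 0.05. Fcgr3 at 1.31 ± 0.30 log2 (adjusted p = 0.0542) and Cd68 at 1.01 ± 0.32 (adjusted p = 0.236) were the furthest from 0. Without the arrays CPN E18 replicate 1, CSMN P6 replicate 2 and CSMN P14 replicate 1 together, a choice made after seeing the data, the P6 median was 0.13. Without any one of the CPN E18 or CSMN P14 arrays, 1 member passed at P6.

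At P14, 2 members were higher in CSMN. Aif1 averaged 6.02 ± 0.24 log2 in CSMN and 5.11 ± 0.01 in CPN (SD, n = 2 each), and was higher in CSMN by 0.91 ± 0.19 log2 (SE, limma adjusted p = 0.0251) and Fcgr3 by 1.32 ± 0.30 (adjusted p = 0.0445). At this stage 0.445% of all genes were higher past the test and 1.39% were called in either direction. The member median was 1.03 log2, and 5 members reached an unadjusted p of 0.05, a count with no share of all genes beside it. Without either CPN P14 array in turn no member passed, and without CSMN P14 replicate 2 or either CPN E18 array, 3 did. Without any one of the 13 arrays of the groups other than these, 1 member passed. No member passed with cyclic loess, with array weights or in a fit on the compared groups alone. Fcgr3 missed the threshold in 19 of 28 alternatives, and Aif1 in 5 of 27. The other microglia gene past the test was Lyz2, which encodes lysozyme, higher by 0.87 ± 0.17 (adjusted p = 0.0147).

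Over the mean of 4 stages, no member passed in CSMN against CPN, and no member reached an unadjusted p of 0.05 (limma), while 8.29% of all genes were called. Ctss had a log2 difference of -0.45 ± 0.35 (SE, adjusted p = 0.465) and C1qa one of -0.37 ± 0.33 (adjusted p = 0.525). The differences depended on the 3 high arrays, a set picked after seeing the data for its high member values. Without them together, C1qa was lower in CSMN by 0.77 log2, Ctss by 0.69, C1qb by 0.65 and Ly86 by 0.45. Without CSMN P14 replicate 1 alone, C1qa was lower by 0.70. Leaving out high arrays lowers the means of their own groups by construction, here CSMN P6, CSMN P14 and CPN E18. Of the other microglia genes, Hexa, which encodes a lysosomal hexosaminidase subunit, was lower by 0.69 ± 0.20 log2 (adjusted p = 0.0434).

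Within each type, P14 was set against E18. In CPN, where 8.98% of all genes were lower at P14 and 19.2% were called, 5 of 10 members were lower. Ly86 was lower by 1.91 ± 0.41 log2 (SE, limma adjusted p = 0.00394), Ccl3 by 1.76 ± 0.44 (adjusted p = 0.00972), Tyrobp by 1.43 ± 0.41 (adjusted p = 0.0231), Fcgr3 by 1.14 ± 0.30 (adjusted p = 0.0142) and Aif1 by 0.86 ± 0.19 (adjusted p = 0.00382). The log2 difference of Cd68 was -0.07, and the member median was -1.51. Without CPN E18 replicate 1 only Aif1 remained past the test. The counts were 2 and 3 without CPN P14 replicate 1 and 2, and 8 without either CSMN P14 array. The progenitor list was lower at P14 for 8 of 10 genes (median -5.48 log2) and the astrocyte list for 7 of 12 (median -1.77). Trem2 and Lyz2 were the other microglia genes that passed, each lower by 0.64 log2.

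In CSMN, where 9.27% of all genes were higher at P14 and 15.1% were called, 3 of 10 members were higher at P14. Cd68 was higher by 1.75 ± 0.32 log2 (SE, limma adjusted p = 0.0018), Fcgr3 by 1.502 ± 0.30 (adjusted p = 0.00371) and Aif1 by 0.74 ± 0.19 (adjusted p = 0.0147). C1qa, with a difference of 2.07 ± 0.68 (adjusted p = 0.0549), and Ctss, with 2.10 ± 0.71 (adjusted p = 0.0621), missed the threshold. The member median was 1.05 log2, and 6 members reached an unadjusted p of 0.05, a count with no share of all genes beside it. The count was 7 without CSMN P14 replicate 2, with a median of 1.90, and 2 without CSMN E18 replicate 2, and it was 0 with array weights and in a fit on the compared groups alone. Of the other microglia genes, Grn was higher by 1.36 log2, Selplg, which encodes a selectin ligand, by 0.95, and Lyz2 by 0.56.

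The change between stages was also tested between the types. Of 10 members, 6 had a larger P14 minus E18 difference in CSMN than in CPN, where 3.53% of all genes did and 5.18% were called. The difference between the 2 changes was 3.94 ± 1.01 log2 for Ctss (SE, limma adjusted p = 0.036), 3.78 ± 0.96 for C1qa (adjusted p = 0.0354), 2.64 ± 0.43 for Fcgr3 (adjusted p = 0.00182), 2.55 ± 0.59 for Ly86 (adjusted p = 0.0202), 1.82 ± 0.45 for Cd68 (adjusted p = 0.0293) and 1.60 ± 0.26 for Aif1 (adjusted p = 0.00206). All 10 members reached an unadjusted p of 0.05, with a median of 2.36. The shares of all genes above are at the adjusted threshold, so this count has none beside it. Without CPN E18 replicate 1 only Fcgr3 and Aif1 passed, and without CSMN P14 replicate 2 all 10 did. The counts were 2 without CPN P14 replicate 2, 3 without either CSMN E18 array and 9 without CPN E18 replicate 2. With array weights, and in a fit on the compared groups alone, no member passed. The E18 groups differ as well in progenitor and astrocyte genes, and 8 of 10 progenitor genes had a larger difference in CSMN (median 5.45 log2). Ccl12, a chemokine gene, had a larger difference in CSMN by 1.97 ± 0.54 (adjusted p = 0.0497), alone among 12 chemokine and cytokine response genes.

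**Figure D4:**
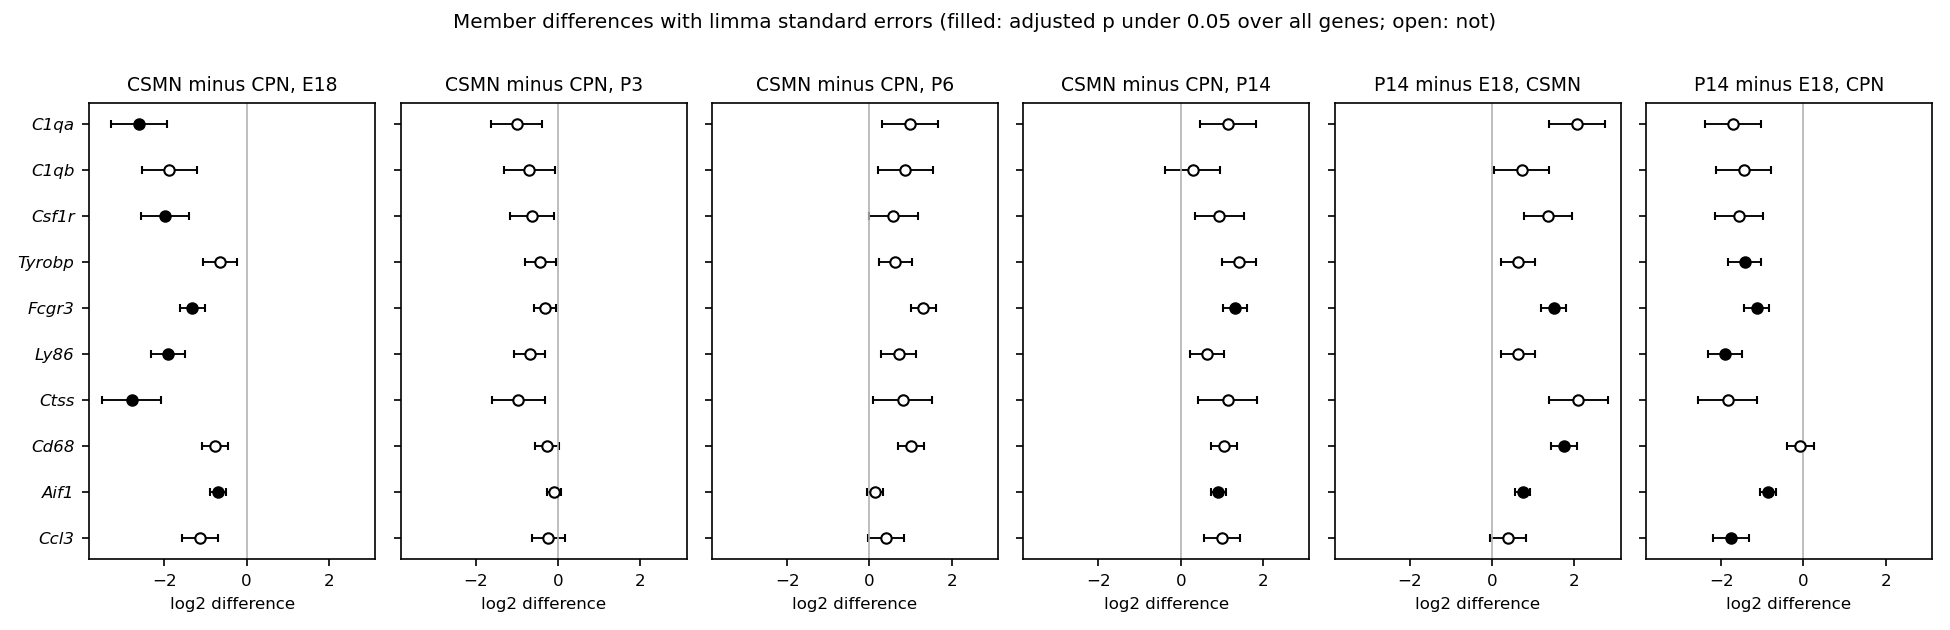
Log2 difference of each of the 10 members with its SE, in CSMN minus CPN at E18, P3, P6 and P14 and in P14 minus E18 within CSMN and within CPN; filled points passed limma's test at an adjusted p below 0.05. The points lie below 0 in CSMN minus CPN at E18 and above it at P6 and P14.

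Between consecutive stages, averaged over CSMN and CPN, the members showed little that passed. At P3 against E18, Ccl3 was lower by 1.0003 ± 0.30 log2 (SE, limma adjusted p = 0.0373), where 3.91% of all genes were lower and 13.1% were called, and Tyrobp had a difference of -0.68 ± 0.28 (adjusted p = 0.128). Ccl3 did not pass without CPN E18 replicate 1, CSMN E18 replicate 2 or any one array of CSMN P3, CSMN P6, CPN P3 and CPN P14, and Aif1 passed beside it without either CSMN P14 array. At P6 against P3, no member passed (2 at an unadjusted p of 0.05, 0.066% of all genes called), with Ctss at 0.98 ± 0.48 and C1qa at 0.75. At P14 against P6, no member passed (1 at an unadjusted p of 0.05, 12.9% of all genes called), with C1qb at -0.86 ± 0.48 (adjusted p = 0.265) and Ctss at -0.62 (adjusted p = 0.444). Without CSMN P14 replicate 1, 4 members were lower at P14 than at P6 (C1qa, C1qb, Fcgr3 and Ly86). Irf8, a transcription factor of microglia, was higher at P14 by 0.59 log2, and Selplg by 0.60.

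In corticotectal neurons, no member passed against either type at P14. Against CSMN, where 0.192% of all genes were called, all 10 log2 differences were negative (median -1.06). At an unadjusted p of 0.05 there were 7 members, a count with no share of all genes beside it. Ctss was at -1.79 ± 0.71 (SE, limma adjusted p = 0.536) and Tyrobp at -1.58 ± 0.41 (adjusted p = 0.224). Aif1 alone passed without CSMN P14 replicate 1 (-0.58), and Fcgr3 alone without CSMN P14 replicate 2 (-1.66). Against CPN, where 1.06% were called, the median was -0.14, with Cd68 at 0.71 ± 0.32 (adjusted p = 0.667), Ctss at -0.65 ± 0.71 (adjusted p = 1), and 1 member at an unadjusted p of 0.05. CTPN and CSMN came from different cortical areas, so area and projection type cannot be told apart.

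The sorted samples also carried transcripts for ligands read by microglial receptors. Which cells in a sample these transcripts came from was not tested. Cx3cl1, which encodes fractalkine, read 11.94 and 11.61 log2 in CTPN at P14. In CSMN it read 7.82 and 7.43 at E18, 9.31, 9.02 and 8.73 at P3, 9.95 and 10.13 at P6, with 12.42 and 11.35 at P14. In CPN it read 7.56 and 6.76 at E18, 8.60 and 8.58 at P3, 9.996 and 9.69 at P6, with 12.08 and 12.06 at P14. Cx3cl1 was higher at P14 than at E18 by 4.26 ± 0.33 log2 in CSMN (SE, limma adjusted p = 1.18e-06) and by 4.91 ± 0.33 in CPN (adjusted p = 1.38e-07). Il34, an alternative ligand of Csf1r, was higher at P14 by 2.12 ± 0.29 log2 in CSMN and 2.07 ± 0.29 in CPN. Cd47, which codes for the ligand through which the receptor SIRPA holds back engulfment, was higher by 1.46 ± 0.24 in CSMN and 1.57 ± 0.24 in CPN, and Sirpa itself by 3.98 and 2.17.

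Of the 13 ligands and partners measured, 6 were higher and 1 lower at P14 in CSMN, and 7 were higher and 2 lower in CPN. Tgfb2, a growth factor of the transforming growth factor family, was lower in both types, with log2 differences of -1.59 ± 0.23 in CSMN and -2.53 ± 0.23 in CPN. Csf1, the other ligand of Csf1r, read 9.20 and 8.47 log2 in the CPN E18 arrays and 6.98 to 7.78 on the other 17, and was lower in CSMN than in CPN at E18 by 1.66 ± 0.25 (SE, limma adjusted p = 0.000403). Gas6, which encodes a bridging ligand of the MERTK receptor, was higher in CSMN than in CPN at P14 by 1.27 ± 0.24 (adjusted p = 0.0131). Replicate spread was a smaller share of the variation for this list, with a median of 5.69% within groups, than for the members (29.2%) and all genes (37.3%).

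**Figure D5:**
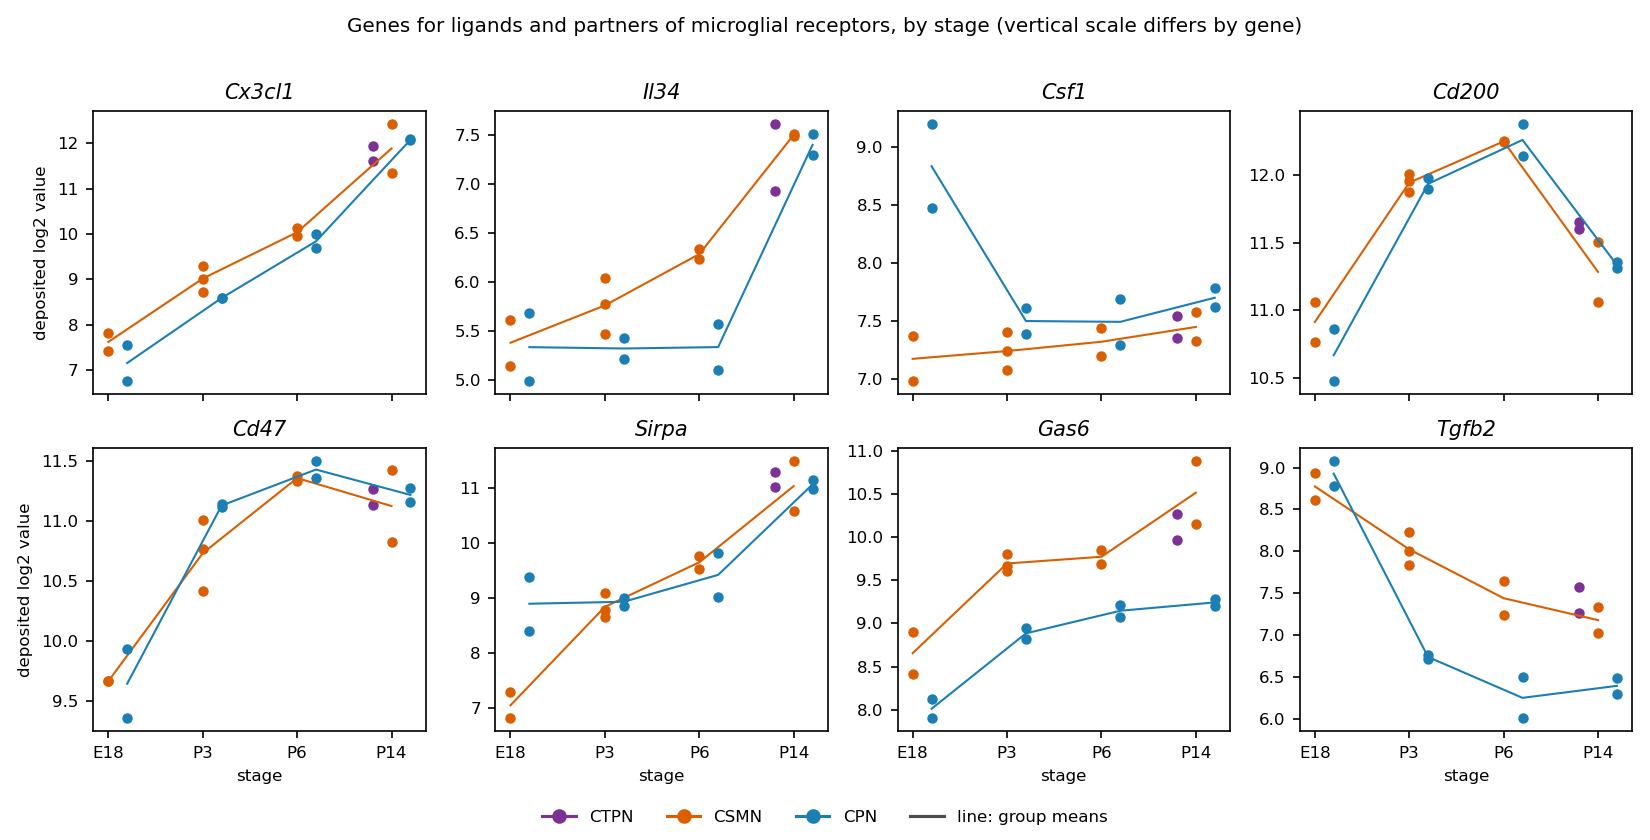
Log2 value of Cx3cl1, Il34, Csf1, Cd200, Cd47, Sirpa, Gas6 and Tgfb2 on each array of CTPN, CSMN and CPN, by stage, with points for arrays and lines through the group means. Cx3cl1, Il34 and Sirpa sit highest at P14, and Csf1 sits highest in CPN at E18.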

How the data were processed

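Affymetrix mouse genome arrays of 19 sorted samples were analysed. The values are log2 expression, deposited by the authors after RMA, per the submitters' processing notes, with no version given. No depth applies, and the number of arrays (2 to 3 a group) limits the precision. The table held 45101 probe sets, of which 64 were controls, 34945 had 1 symbol, 932 several and 9160 none. Gene IDs of 34741 matched RefSeq. The brightest single-symbol probe set per gene gave 18193 genes.

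One limma model of 9 group means (limma 3.58.1 in R 4.3.3, lmFit, contrasts and eBayes, 10 residual and 4.46 prior degrees of freedom) gave two-sided tests, with Benjamini-Hochberg adjusted p below 0.05 over all 18193 genes. Descriptions and figures used Python 3.11.15, pandas 2.3.3, numpy 2.4.6 and matplotlib 3.10.9. Promoters are RefSeq's, build GRCm38.p6. The statistics were tested on simulated data.

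The members and lists were chosen with earlier results of these data known. Named genes are all members past a test (or, where fewer than 3 passed, the 2 with the largest difference), up to 4 genes per other list, and the 10 most alike. Group labels share replicate numbers, but same-numbered arrays of different groups deviated together at a median r of 0.09 (-0.31 to 0.59, 72 pairs), so they were not taken as pairs. The design text calls replicates independent collections. Alternatives covered normalization, probe set, filter, spread model, samples in the fit, replicate block and arrays left out.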

Additional observations from a re-analysis of the deposited data

Results flagged for a closer look

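Of the 10 members, 6 changed differently between E18 and P14 in the 2 types, by the interaction test of limma. The difference between the change in CSMN and that in CPN was 3.94 log2 for Ctss, 3.78 for C1qa, 2.64 for Fcgr3, 2.55 for Ly86, 1.82 for Cd68 and 1.60 for Aif1. Fcgr3 and Aif1 passed also without CPN E18 replicate 1, at 2.28 and 1.61 log2. With array weights, and in a fit on the compared groups alone, none of the 6 passed: adjusted p was 0.147 and 0.0855 for Fcgr3, and 0.121 and 0.128 for Aif1.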

How the results depend on the processing

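Counts are of the 10 members past limma's test. The share of all genes called under each alternative is not set beside them. A change in a count is therefore not by itself a result about the members. Leaving out 1 array in turn gave 0 to 1 for CSMN against CPN over the mean of 4 stages, 0 to 8 at E18 (0 without CPN E18 replicate 1, 8 without CPN E18 replicate 2), 0 at P3, 0 to 1 at P6 and 0 to 3 at P14. It gave 1 to 8 for P14 against E18 in CPN (1 without CPN E18 replicate 1, 8 without either CSMN P14 array), 2 to 7 in CSMN, 2 to 10 for the difference between these changes, 0 to 2 for P3 against E18, 0 for P6 against P3, 0 to 4 for P14 against P6 (4 without CSMN P14 replicate 1), and 0 to 1 for CTPN against CSMN and 0 against CPN. Quantile normalization gave 5 for P14 against E18 in CSMN, 0 for P3 against E18 and 1 for P14 against P6. Cyclic loess gave 5 and 0 for the same first 2, and 0 for CSMN against CPN at P14. The filter to brighter genes, which tests fewer members, gave 0 at P14, 2 for P14 against E18 in CPN, 3 for the difference between the changes and 0 for P3 against E18. The mean of probe sets gave 1 at P6, and leaving out _x_at and _s_at probe sets gave 1 at P14. Array weights gave 0 at E18, 1 at P3, 2 at P6, 0 at P14, 0 for P14 against E18 in CSMN, 0 for the difference between the changes and 1 for P6 against P3. Fits on the groups compared alone, with fewer arrays, gave 3 at E18, 3 at P3, 0 at P14, and 0 for P14 against E18 in CSMN, for the difference between the changes and for P3 against E18. With the replicate block, whose numbers do not pair the arrays, the counts were 1 at P14 and 0 for P3 against E18, and no other count moved by over 1.5 times. The mean of 4 stages gave 1 without E18 and 4 without the 3 high arrays, which also gave 3 for P14 against P6 and 3 for CTPN against CSMN, an alternative chosen after seeing the data. Except where construction shows it, the cause was not tested. No direction of a called member was reversed under the alternatives run. The members above their replicate in CSMN P6, CSMN P14 and CPN E18 numbered 9 to 10 under 4 other normalization or probe set choices. These counts rest on the same choice of arrays, made after seeing the data. With 2 arrays in most groups, moderate differences in Ctss, C1qa, C1qb and Csf1r could be missed.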
